A study of Homo sapiens with 8 samples.

Results

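The origin recognition and licensing factors are the proteins that mark replication origins and load the replicative helicase onto them. The genes described here are ORC1, ORC2, ORC3, ORC4, ORC5, ORC6, CDC6, CDT1 and GMNN, which were chosen by symbol and are 9 of the 38148 genes in the table of HT29 expression values. These genes and the gene lists below were chosen with earlier results of these data known. Counts of them set beside the share of all genes are therefore descriptive. All 9 were expressed above the filter used for testing, a mean of 1 RPM (reads scaled to library size) over the 8 libraries, and are among the 14219 genes tested.

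HT29 is an established human colorectal cancer cell line, and selumetinib is an inhibitor of MEK, the kinase that activates ERK. Cells without drug and cells given selumetinib (1 μM, 24 h) were fixed, stained for the protein cyclin B1 (CCNB1), which accumulates as cells move through S phase into G2, and divided by a cell sorter before mRNA-seq. Each treatment gave 2 libraries from the CCNB1-negative and 2 from the CCNB1-positive fraction, 8 in 4 groups. The deposited descriptions, which give the conditions used here, were contradicted by the sample titles, which name the opposite treatment and the opposite fraction for every library. The label for the growth medium also names the opposite treatment. The column names of the deposited expression values name the same conditions as the descriptions. If the titles were right, the CCNB1-negative and CCNB1-positive responses given here would trade places and change sign, the differences between fractions would swap between treatments with their signs changed, and the difference between the responses of the fractions would be as given. By the descriptions, CCNB1 itself had 14140 and 15521 reads in the untreated CCNB1-positive libraries and 154 and 88 reads in those of CCNB1-negative cells under selumetinib, and 9 of 10 genes that report MEK output fell under the MEK inhibitor in both fractions. By the titles, the former libraries would be selumetinib-treated CCNB1-negative and the latter untreated CCNB1-positive, and those 9 genes would have risen. Nothing states that the libraries of a group came from separate cultures, so p-values measure only the spread between these samples, which may be technical.

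The libraries held between 12696860 and 23916160 reads on genes, and the shallowest 2 were those of CCNB1-negative cells under selumetinib. All 7 colon epithelial marker genes examined were above the filter. The 8 markers of blood, fibroblast and endothelial cells together made up between 3.6 and 7.9 RPM, and CD3E and COL1A2 had at most 1 read in any library. The fibroblast marker COL1A1 had 6 to 107 reads, up to 5.36 RPM, and was the only marker of the 8 that was tested. It rose under selumetinib in CCNB1-negative and CCNB1-positive cells (log2 change 1.81 and 2.19, adjusted p = 0.00430 and 0.00149 in limma). The summed level of 8 G2 and mitosis genes was 899.6 to 994.3 RPM in untreated CCNB1-negative cells, 3891.5 to 4313.1 RPM in untreated CCNB1-positive cells, 104.2 to 138.3 RPM in selumetinib-treated CCNB1-negative cells and 3023.5 to 3142.6 RPM in selumetinib-treated CCNB1-positive cells, and none of the 8 was at 0 in any library. Under selumetinib these levels fell as most of the licensing genes did, whereas between untreated fractions they differed in the direction opposite to CDC6 and ORC1. The part of these 8 genes in the results below was not tested. CCNB1, on whose protein the cells were sorted, is among the 8, so their difference between fractions is in part set by the sort. In bulk RNA, fewer cells expressing a gene and less of its RNA per cell cannot be told apart.

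Licensing takes place between late mitosis and the end of G1. ORC, a complex of the products of ORC1 to ORC6, binds DNA, recruits the ATPase CDC6, and together with CDT1 loads the MCM2 to MCM7 helicase as an inactive double ring that is activated only in S phase. Once S phase begins, geminin, the product of GMNN, binds CDT1 and blocks further loading until it is degraded in mitosis. Several of these genes are known targets of the E2F transcription factors, which are released when the RB protein is phosphorylated.

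Per kilobase of exon, the most abundant of these mRNAs in untreated CCNB1-negative cells was GMNN, at 39.7 ± 8.30 RPKM (RPM per kilobase; mean ± SD, n = 2), followed by CDT1 at 28.8 ± 2.63 and CDC6 at 26.6 ± 2.0. The neighbours CDT1 and CDC6 did not differ beyond their spread. ORC3, ORC5, ORC6, ORC2 and ORC1 followed between 15.1 and 12.5 RPKM, too close to rank, and ORC4 was the lowest at 4.84 ± 0.942. In selumetinib-treated CCNB1-negative cells the order was different. ORC2 (20.5 ± 3.47 RPKM) and GMNN (19.6 ± 1.19) were at the top and indistinguishable, and CDC6 (1.34 ± 0.222) and ORC1 (0.955 ± 0.184) were at the bottom. In selumetinib-treated CCNB1-positive cells CDC6 (3.66 ± 0.304 RPKM) and ORC1 (2.44 ± 0.072) were again the lowest 2 of the 9. These lengths are those of all annotated exons of a gene, and with the length of its 1 representative transcript instead GMNN ranked first in all 4 groups and ORC6 moved from rank 6 to rank 2 in untreated CCNB1-negative cells, whereas CDC6 and ORC1 stayed at ranks 8 and 9 in both selumetinib-treated groups.

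**Figure D1:**
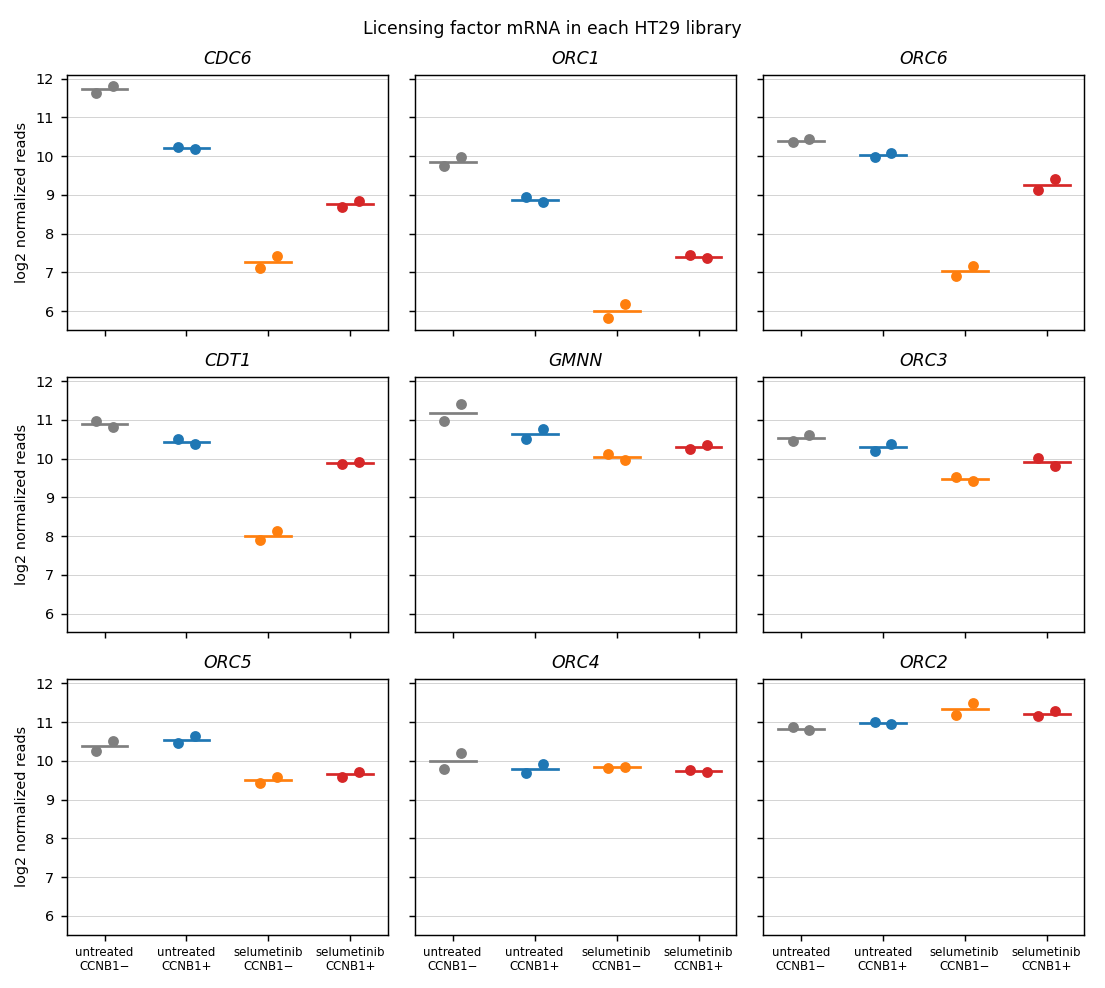
Log2 normalised reads (vertical axis, reads scaled to the largest library) of each of the 9 genes in the 8 libraries, by group (horizontal axis), with points for libraries and bars for the mean of 2. ORC1, ORC6, CDC6 and CDT1 were lowest in both selumetinib-treated CCNB1-negative libraries, whereas ORC2 was highest there in replicate 2.

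Levels below are log2 normalised reads, for which 1 unit is a doubling. With 2 libraries a group, groups that do not overlap were common: 86.4% of all genes tested did not overlap between treated and untreated CCNB1-negative cells, 85.8% between treated and untreated CCNB1-positive cells, 44.3% between untreated fractions and 63.9% between treated fractions. The tests given are those of the fit without a block for paired libraries. CDC6 (ENSG00000094804, chromosome 17, 40287879 to 40304657 of GRCh38), the ATPase that closes the ORC ring around DNA, showed the largest change of the 9. Without drug it stood at 11.64 and 11.81 in the CCNB1-negative and at 10.23 and 10.19 in the CCNB1-positive libraries, and under selumetinib at 7.11 and 7.42 in the former and 8.68 and 8.84 in the latter. None of the 4 groups overlapped. The lowest values rested on 88 and 101 reads, with 95% Poisson intervals of 70.6 to 108 and 82.3 to 123 that cover counting error only. Under selumetinib CDC6 fell by 4.46 on the log2 scale in CCNB1-negative cells (SE 0.16, adjusted p = 7.18e-10), to 4.55% of the untreated level (95% interval 3.57% to 5.79%). In CCNB1-positive cells the change was -1.45 (SE 0.16, adjusted p = 5.41e-06), which left 36.6% of the untreated level. The fractions differed in opposite directions with and without the drug: CDC6 was lower in CCNB1-positive than in CCNB1-negative cells when untreated (-1.51, adjusted p = 5.82e-05) and higher when treated (1.49, adjusted p = 1.53e-05). The responses of the fractions differed by 3.01 (SE 0.23, 95% interval 2.52 to 3.50, adjusted p = 4.12e-06).

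CDT1 (ENSG00000167513, chromosome 16, 88803789 to 88809258), which delivers the MCM ring to ORC and CDC6, stood at 10.97 and 10.80 (CCNB1-negative) and 10.50 and 10.37 (CCNB1-positive) without drug, and 7.89 and 8.12 (CCNB1-negative) and 9.86 and 9.91 (CCNB1-positive) under selumetinib. The selumetinib-treated CCNB1-negative libraries stood apart below all others. CDT1 fell by 2.89 in CCNB1-negative cells (SE 0.15, adjusted p = 3.86e-09), to 13.5% of the untreated level, and its change in CCNB1-positive cells was -0.55 (SE 0.15, adjusted p = 0.00581). Without untreated CCNB1-positive replicate 1 the latter was -0.49 with an adjusted p of 0.0538. CDT1 did not pass the test between the untreated fractions (-0.45, 95% interval -0.78 to -0.12, adjusted p = 0.167) but was higher in CCNB1-positive cells under selumetinib (1.88, adjusted p = 6.28e-07), and the responses differed by 2.33 (SE 0.22, adjusted p = 1.06e-05).

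ORC1 (ENSG00000085840, chromosome 1, 52372829 to 52404423, minus strand) encodes the largest ORC subunit, which in human cells is degraded during S phase and made again in the next cycle. Its values were 9.74 and 9.98 (CCNB1-negative) and 8.94 and 8.83 (CCNB1-positive) without drug, and 5.82 and 6.19 (CCNB1-negative) and 7.45 and 7.37 (CCNB1-positive) under selumetinib. No groups overlapped, and the order of the groups was that of CDC6. The lowest values rested on 36 and 43 reads (95% Poisson intervals 25.2 to 49.8 and 31.1 to 57.9). ORC1 fell by 3.86 in CCNB1-negative cells (SE 0.20, adjusted p = 3.34e-09), to 6.90% of the untreated level, and its change in CCNB1-positive cells was -1.47 (SE 0.20, adjusted p = 2.66e-05). It was lower in untreated CCNB1-positive than CCNB1-negative cells (-0.98, adjusted p = 0.0142), and higher in CCNB1-positive cells under selumetinib (1.40, adjusted p = 0.000230). The untreated difference lost its call without untreated CCNB1-negative replicate 2 (-0.86, adjusted p = 0.180), without untreated CCNB1-positive replicate 2 (-0.92, adjusted p = 0.126) and after quantile normalization (-0.86, adjusted p = 0.0617). The responses differed by 2.38 (SE 0.28, adjusted p = 7.66e-05).

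ORC6 (ENSG00000091651, chromosome 16, 46689643 to 46698394) encodes the smallest and least tightly bound ORC subunit. It stood at 10.36 and 10.44 (CCNB1-negative) and 9.98 and 10.08 (CCNB1-positive) without drug, and 6.92 and 7.17 (CCNB1-negative) and 9.12 and 9.41 (CCNB1-positive) under selumetinib, and the lowest value rested on 77 reads. The selumetinib-treated CCNB1-negative libraries were more than 1 log2 unit below all others. The change was -3.36 in CCNB1-negative cells (SE 0.17, adjusted p = 2.58e-09), which left 9.76% of the untreated level, and -0.77 in CCNB1-positive cells (SE 0.17, adjusted p = 0.00122). The untreated fractions differed by -0.37, which did not pass (95% interval -0.73 to -0.01, adjusted p = 0.358), whereas the treated fractions differed by 2.22 (adjusted p = 2.96e-07). The responses differed by 2.59 (SE 0.24, adjusted p = 1.02e-05).

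The RefSeq promoters of these 4 genes, from 250 bases before to 50 bases after the annotated start on GRCh38.p14, are shown because the 4 genes fell together and were the only members whose responses passed the test of a difference between fractions in the fit without a block. Capitals mark a match to an E2F word, TTTGGCGC, TTTCCCGC, TTTGCCGC or TTTCGCGC on either strand. The windows are chr17:40287629-40287928 (plus strand) for CDC6, chr16:88803539-88803838 (plus) for CDT1, chr1:52404374-52404673 (minus) for ORC1 and chr16:46689409-46689708 (plus) for ORC6, each written 5′ to 3′ along the gene.
CDC6: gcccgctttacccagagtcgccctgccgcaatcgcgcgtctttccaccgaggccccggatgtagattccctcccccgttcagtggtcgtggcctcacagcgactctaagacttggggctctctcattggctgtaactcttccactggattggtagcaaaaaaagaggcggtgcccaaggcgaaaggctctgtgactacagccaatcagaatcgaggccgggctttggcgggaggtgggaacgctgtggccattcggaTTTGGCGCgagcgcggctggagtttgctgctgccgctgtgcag
CDT1: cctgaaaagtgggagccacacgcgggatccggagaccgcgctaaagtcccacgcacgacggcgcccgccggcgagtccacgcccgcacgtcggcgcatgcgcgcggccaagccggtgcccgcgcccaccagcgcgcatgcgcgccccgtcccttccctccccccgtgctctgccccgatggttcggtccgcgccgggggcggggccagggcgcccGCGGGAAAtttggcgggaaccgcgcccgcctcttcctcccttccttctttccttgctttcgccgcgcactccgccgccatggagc
ORC1: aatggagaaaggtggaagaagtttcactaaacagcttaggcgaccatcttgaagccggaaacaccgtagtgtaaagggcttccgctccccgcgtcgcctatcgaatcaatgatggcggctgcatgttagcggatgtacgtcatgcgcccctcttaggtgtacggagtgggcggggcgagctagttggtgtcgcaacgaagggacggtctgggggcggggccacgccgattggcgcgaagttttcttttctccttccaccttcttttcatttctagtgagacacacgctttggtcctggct
ORC6: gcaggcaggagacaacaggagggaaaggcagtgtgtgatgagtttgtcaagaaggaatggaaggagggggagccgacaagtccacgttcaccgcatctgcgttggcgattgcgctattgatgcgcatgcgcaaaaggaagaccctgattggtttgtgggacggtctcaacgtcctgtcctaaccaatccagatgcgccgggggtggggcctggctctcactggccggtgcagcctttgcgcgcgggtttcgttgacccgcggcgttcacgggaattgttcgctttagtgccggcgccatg

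All 9 genes had RefSeq promoter windows, 11 in all, since GMNN and ORC4 have 2 starts each. An E2F word was found in 4 of the 11 windows (4 of the 9 genes), compared with 3.31% of 35116 promoter windows. In CDC6 it began 8 bases after the start, and in CDT1 its first base lay 35 bases before the start. The other matches were at -80 in the second GMNN window (chr6:24775163-24775462) and at -12 in ORC3 (chr6:87589885-87590184), so the words were present in genes with larger and smaller responses alike. ORC1 and ORC6 held none of these letters in this window, which says nothing of E2F binding. CCAAT, on either strand, was found in 6 of the 11 windows, those of 6 genes (CDC6, GMNN, ORC1, ORC2, ORC3 and ORC6), and in 34.61% of all windows. The words TTTGAA and TTCGAA, forms of the cell cycle homology region found in many genes of G2, were found in 0 of the 11 and in 16.35% of all windows. No E2F match overlapped a CCAAT match.

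The other 4 ORC subunits form the stable core of the complex, and their mRNAs changed far less in CCNB1-negative cells. In CCNB1-positive cells ORC5 fell by more (-0.89) than ORC6 (-0.77) and CDT1 (-0.55), though by less than ORC1 (-1.47) and CDC6 (-1.45). ORC3 (ENSG00000135336, chromosome 6, 87590067 to 87667453) stood at 10.45 and 10.60 (CCNB1-negative) and 10.20 and 10.37 (CCNB1-positive) without drug, and 9.52 and 9.42 (CCNB1-negative) and 10.003 and 9.82 (CCNB1-positive) under selumetinib. The treated libraries were below the untreated ones in both fractions. ORC3 fell by 1.06 in CCNB1-negative cells (SE 0.15, adjusted p = 2.05e-05). In CCNB1-positive cells its change of -0.38 was just past the threshold (95% interval -0.70 to -0.05, adjusted p = 0.0394), and 6 of the 8 fits without 1 library lost that call, among them the fits without untreated CCNB1-positive replicate 2 (-0.29, adjusted p = 0.246) and without selumetinib-treated CCNB1-positive replicate 2 (-0.28, adjusted p = 0.230). The treated fractions differed by 0.44 (adjusted p = 0.0491), a call that was likewise lost in 7 of the 8 fits without 1 library (adjusted p up to 0.287, without selumetinib-treated CCNB1-positive replicate 1). The responses differed by 0.68 (95% interval 0.23 to 1.14, adjusted p = 0.0848), and by 0.73 with an adjusted p of 0.0476 without selumetinib-treated CCNB1-negative replicate 1.

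ORC5 (ENSG00000164815, chromosome 7, 104126341 to 104208047, minus strand), which like ORC1 and ORC4 encodes an ATP-binding subunit, changed by similar amounts in both fractions. It stood at 10.26 and 10.50 in untreated CCNB1-negative and 10.46 and 10.63 in untreated CCNB1-positive libraries, and at 9.42, 9.59, 9.58 and 9.73 in the treated ones in the same order. Every treated library was below every untreated one. The change was -0.87 in CCNB1-negative cells (SE 0.15, adjusted p = 0.000166) and -0.89 in CCNB1-positive cells (SE 0.15, adjusted p = 0.000207), and the difference of responses was -0.02, with a 95% interval of -0.49 to 0.45 (adjusted p = 0.963).

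ORC4 (ENSG00000115947, chromosome 2, 147930397 to 148021604, minus strand) stood at 9.79 and 10.21 (CCNB1-negative) and 9.68 and 9.92 (CCNB1-positive) without drug, and 9.83 and 9.85 (CCNB1-negative) and 9.76 and 9.70 (CCNB1-positive) under selumetinib. Treated and untreated values overlapped in both fractions. Its change was -0.16 in CCNB1-negative (95% interval -0.52 to 0.20, adjusted p = 0.397) and -0.07 in CCNB1-positive cells (95% interval -0.43 to 0.29, adjusted p = 0.720), intervals that leave room for a modest fall or rise. ORC4 overlaps ACVR2A and MBD5 on the opposite strand, and whether strand was used in counting is not stated.

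ORC2 (ENSG00000115942, chromosome 2, 200908977 to 200963680, minus strand) was the only member that rose. It stood at 10.88 and 10.79 in untreated CCNB1-negative and 11.02 and 10.96 in untreated CCNB1-positive libraries, compared with 11.18 and 11.49 in selumetinib-treated CCNB1-negative and 11.15 and 11.29 in selumetinib-treated CCNB1-positive ones. The change in CCNB1-negative cells was 0.50 (SE 0.15, 95% interval 0.18 to 0.82, adjusted p = 0.00734), and 0.45 above the median of all genes tested. Without selumetinib-treated CCNB1-negative replicate 2 it was 0.35 with an adjusted p of 0.0576. In CCNB1-positive cells the change of 0.23 did not pass (95% interval -0.09 to 0.55, adjusted p = 0.182), but passed after quantile normalization (0.38, adjusted p = 0.0458). ORC2 overlaps a long non-coding RNA gene, ENSG00000183308, on the opposite strand.

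GMNN (ENSG00000112312, chromosome 6, 24774931 to 24786099) encodes the inhibitor of CDT1. It stood at 10.96 and 11.41 (CCNB1-negative) and 10.51 and 10.76 (CCNB1-positive) without drug, and 10.12 and 9.97 (CCNB1-negative) and 10.24 and 10.35 (CCNB1-positive) under selumetinib. The treated libraries were below the untreated ones in both fractions. The test was passed in CCNB1-negative cells, where 45.3% of the untreated level was left (log2 change -1.14, SE 0.17, adjusted p = 3.13e-05). In CCNB1-positive cells the change was -0.34 (95% interval -0.70 to 0.03, adjusted p = 0.0939). The fractions did not pass the test against each other without a block when untreated (-0.55, adjusted p = 0.117) or treated (0.26, adjusted p = 0.290). The responses differed by 0.81 (95% interval 0.29 to 1.32, adjusted p = 0.0714), which passed without untreated CCNB1-negative replicate 1 (1.03, adjusted p = 0.0244) and without selumetinib-treated CCNB1-negative replicate 1 (0.88, adjusted p = 0.0462).

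**Figure D2:**
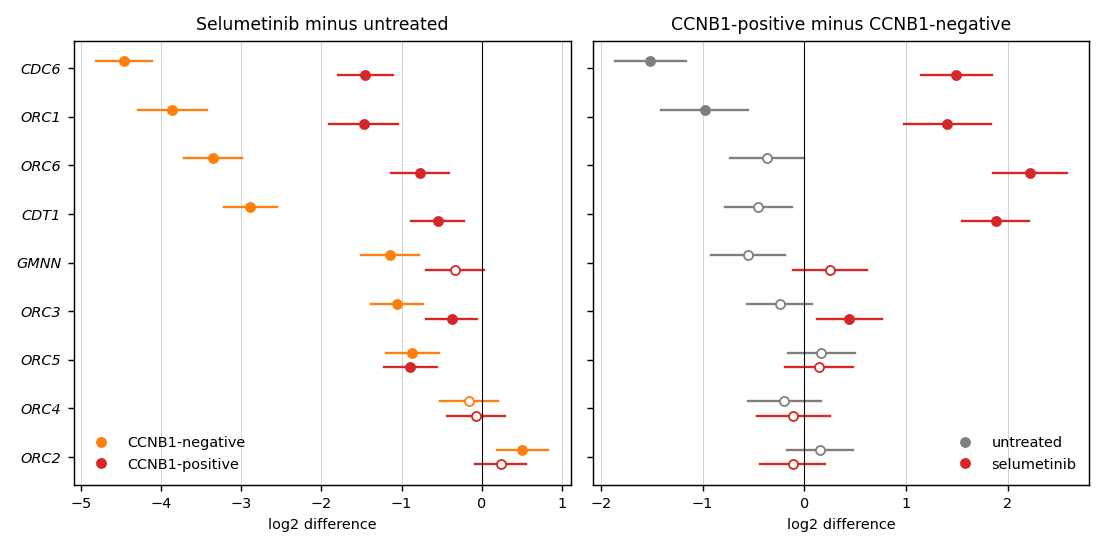
Fitted log2 differences (horizontal axis) of the 9 genes in each comparison, with lines for 95% intervals; filled symbols passed an adjusted p of 0.05 and open symbols did not. The change of CDC6 in CCNB1-negative cells, -4.46, is the largest, and ORC4 lies near 0 throughout.

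Of the 9 genes, 7 fell and 1, ORC2, rose in CCNB1-negative cells, where 74.1% of the 14219 genes tested changed, 35.8% down and 38.2% up. In CCNB1-positive cells 6 fell and 0 rose, where 65.3% of all genes changed, 27.3% down and 38.0% up. The median change of the 9 was -1.14 and -0.55, compared with 0.05 and 0.17 over all genes tested. Between untreated fractions CDC6 and ORC1 were lower in CCNB1-positive cells and none was higher (2.87% of all genes differed, 1.51% lower and 1.36% higher). Between treated fractions ORC1, ORC3, ORC6, CDC6 and CDT1 were higher in CCNB1-positive cells and none was lower (21.6% of all genes differed, 13.8% higher and 7.87% lower). In the fit without a block, the responses differed for ORC1, ORC6, CDC6 and CDT1, all with the smaller fall in CCNB1-positive cells, as 4.99% of all genes did in that direction of the 5.33% that differed, with 0.345% in the other. Treating same-numbered fractions within a treatment as a pair added calls for ORC6, CDT1 and GMNN between untreated fractions and for ORC3 and GMNN in the difference of responses. The share of calls that were higher depended on scaling. In CCNB1-positive cells it was 58.1% of all calls in the deposited scaling and 47.5% after quantile normalization, between untreated fractions 47.5% and 64.8%, between treated fractions 63.6% and 47.9%, and for the difference of responses 93.5% and 70.9%. The responses of the fractions share no libraries, but each shares its libraries with a comparison of fractions.

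Ratios within a library do not depend on how libraries were scaled to each other. The log2 ratio of CDT1 to GMNN per kilobase was -0.14 and -0.76 (CCNB1-negative) and -0.17 and -0.54 (CCNB1-positive) without drug, and -2.39 and -2.0 (CCNB1-negative) and -0.54 and -0.60 (CCNB1-positive) under selumetinib. The selumetinib-treated CCNB1-negative libraries alone stood apart, at a mean ratio of 0.218 CDT1 per GMNN compared with 0.674 to 0.783 in the other groups. The log2 ratio of CDC6 to the mean of ORC2 to ORC5 was 1.29 and 1.28 (CCNB1-negative) and -0.11 and -0.29 (CCNB1-positive) without drug, and -2.88 and -2.67 (CCNB1-negative) and -1.44 and -1.30 (CCNB1-positive) under selumetinib. That is a step from 2.44 to 0.146 CDC6 per core subunit in CCNB1-negative cells. For ORC1 the same means went from 1.14 to 0.104 and for ORC6 from 1.20 to 0.155, whereas in CCNB1-positive cells they went from 0.592 to 0.258 and from 0.951 to 0.676. The lengths used shift each ratio by 1 constant in all libraries, such as -0.92 for CDT1 to GMNN with representative transcripts, and leave the differences between groups as they are. These ratios were described and not tested.

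**Figure D3:**
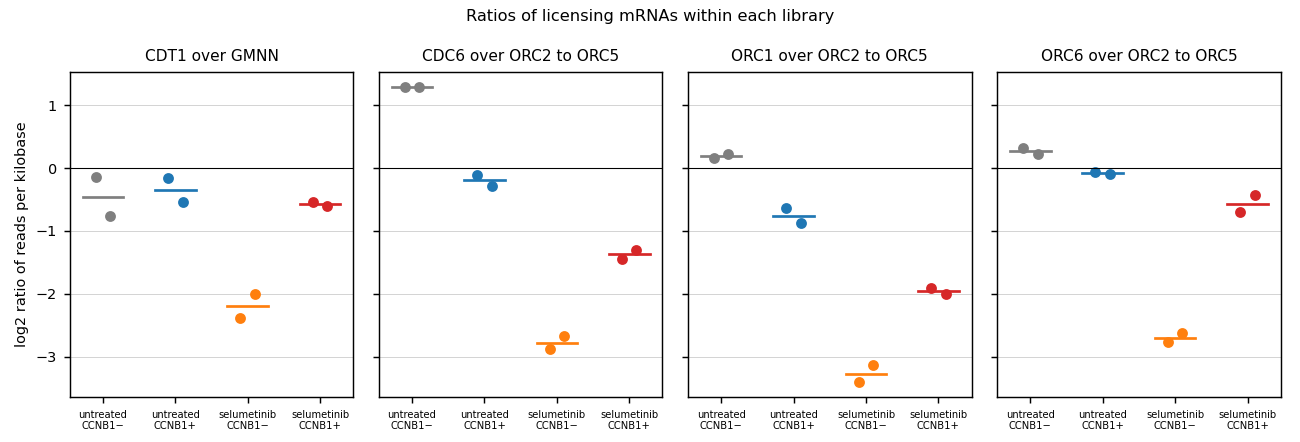
Log2 ratios of reads per kilobase (vertical axis) within each library, by group (horizontal axis), with a point for each library and a bar for the mean of 2. CDT1 over GMNN is lower only in CCNB1-negative libraries under selumetinib (-2.39 and -2.0), and the ratios of CDC6, ORC1 and ORC6 to ORC2 to ORC5 are lowest in the same libraries.

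The genes with the most similar patterns were sought as the smallest root-mean-square difference in log2 value over the 8 libraries, after each gene was centred on its own mean. The closest to ORC1 were MCM10, a replication initiation factor, at 0.13 and the helicase subunit MCM4 at 0.15, and the closest to CDC6 were MCM10 at 0.18 and GINS2, a part of the active helicase, at 0.25. ORC6 was closest to FBXO5, an inhibitor of the anaphase-promoting complex (0.12), and TEDC2 (0.13), and CDT1 to CENPK, a kinetochore protein (0.12), and PCLAF, a PCNA-binding protein (0.13). The core subunits were closest to genes of other kinds, ORC2 to OPA3 (0.05) and SENP6 (0.06), ORC3 to COX20 (0.04) and STARD3NL (0.06), ORC4 to ARL3 (0.05) and UFSP2 (0.06), and ORC5 to MTIF2 (0.06) and CHUK (0.07). GMNN was closest to MANEA (0.06) and SMIM10L1 (0.09). Among the members the closest pairs were ORC3 with GMNN (0.17), ORC3 with ORC5 (0.22), ORC6 with CDT1 (0.24) and ORC1 with CDC6 (0.25), and the farthest was ORC2 with CDC6 (1.85).

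The helicase that these factors load changed in the same direction. All 6 of MCM2 to MCM7 fell in both fractions (median log2 change -3.77 and -1.46), with MCM6 at -3.97 and -1.86 (adjusted p = 7.18e-10 and 5.25e-07) and MCM5 at -3.90 and -1.20 (adjusted p = 7.18e-10 and 2.09e-05). For 5 of the 6 the fall was smaller in CCNB1-positive cells by the test of the difference, and the exception was MCM7 (0.62, adjusted p = 0.111). Between untreated fractions 5 of 6 were lower in CCNB1-positive cells, as CDC6 and ORC1 were, though only 3 were without untreated CCNB1-negative replicate 2. Between treated fractions 5 were higher.

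All 14 genes of origin firing, the step at which CDC45 and GINS join the loaded helicase, fell in CCNB1-negative cells (median -2.33), led by GINS2 (-4.17, adjusted p = 7.18e-10) and MCM10 (-4.00, adjusted p = 1.80e-09). In CCNB1-positive cells 5 of the 14 fell and 1 rose (median -0.43), with GINS2 at -1.29 (adjusted p = 1.84e-05) and MCM10 at -1.40 (adjusted p = 2.72e-05). The count that fell there was 10 with limma-voom on recovered reads. DBF4B, an activator of the CDC7 kinase, was the gene that rose (0.62, adjusted p = 0.0318), a call lost without either selumetinib-treated CCNB1-positive library or untreated CCNB1-positive replicate 2. The responses of the fractions differed for all 14.

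Among 6 cofactors that help ORC or MCM on chromatin, 5 fell in the CCNB1-negative fraction and 4 fell in the other. None passed the test of a difference between the responses. Only 5.33% of all genes tested passed it, so this result does not set the cofactors apart. The fitted differences of the 6 ran from -0.10 to 0.78, and the largest, that of MCMBP, had an adjusted p of 0.0590. MCMBP, a chaperone of MCM proteins, changed by -1.89 and -1.12 (adjusted p = 1.36e-07 and 3.39e-05) and RIF1, a regulator of replication timing, by -1.45 and -0.87 (adjusted p = 7.71e-07 and 0.000136). Of 10 genes for the turnover of licensing factors, 7 fell in CCNB1-negative cells, and 5 fell and 1 rose in CCNB1-positive cells. They included CKS1B, a cofactor of the SKP2 ubiquitin ligase (-3.60 and -1.09, adjusted p = 2.02e-09 and 0.000103), and FBXO5 (-3.18 and -0.87, adjusted p = 8.20e-09 and 0.00111). The gene that rose was the deubiquitinase USP37 (0.42, adjusted p = 0.0318), and that call was lost without any 1 of the 4 CCNB1-positive libraries. The geminin relative MCIDAS had 26 to 63 reads a library and did not pass in any comparison, and GMNC, the other relative, had at most 3 reads and was not tested.

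The activating E2F genes fell in CCNB1-negative cells, 3 of 3, with E2F1 at -3.65 (adjusted p = 7.89e-10) and E2F2 at -3.03 (adjusted p = 6.52e-06). In CCNB1-positive cells 2 fell and 1 rose: E2F1 changed by -0.50 (adjusted p = 0.0107) and E2F3 by -0.74 (adjusted p = 0.000764), and E2F2 rose by 1.41 (adjusted p = 0.00481). The E2F2 values rested on few reads, 22 to 36 in untreated and 57 to 61 in treated CCNB1-positive libraries. Treated CCNB1-negative libraries had 12 to 22. The change of E2F3 in CCNB1-negative cells was -0.79 (adjusted p = 0.000335), and its responses differed by 0.04 (95% interval -0.42 to 0.51, adjusted p = 0.933). Of 10 genes that report MEK output, 9 fell in both fractions, among them the ETS factors ETV4 (-3.10 and -2.34, adjusted p = 8.11e-07 and 2.24e-05) and ETV5 (-2.95 and -2.02, adjusted p = 8.78e-07 and 5.28e-05), and the exception, EGR1, rose by 1.17 and 1.58 (adjusted p = 0.000317 and 3.96e-05). None of the 10 passed the test of a difference between the responses. Only 5.33% of all genes tested passed it, so this result does not set the 10 apart or show equal responses. Their fitted differences ran from -0.51 to 0.93. ORC1, ORC6, CDC6 and CDT1 passed the test, as did all 8 G2 and mitosis genes (median difference 2.47). The 8 G2 and mitosis genes fell in CCNB1-negative cells (8 of 8, median -3.23) and 7 of 8 fell in CCNB1-positive cells (median -0.84). All 8 were higher in CCNB1-positive than CCNB1-negative cells without the drug (median 2.0), opposite in sign to CDC6 and ORC1, and with it (median 4.58). The 8 include the sorted marker CCNB1, so these differences are in part set by the sort.

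**Figure D4:**
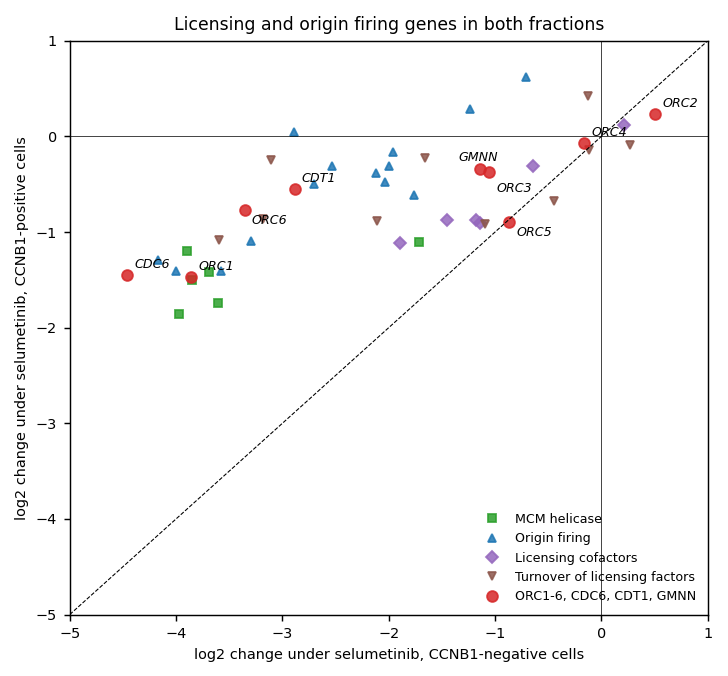
Log2 change under selumetinib in CCNB1-negative cells (horizontal axis) and in CCNB1-positive cells (vertical axis), with a point for each gene, shapes for lists of genes and a dashed line of equal change. CDC6, ORC1, ORC6 and CDT1 lie far to the left of the line with the MCM and origin firing genes, ORC5 lies on it, and ORC2 lies to its right.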

How the data were processed

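The authors sequenced poly(A) mRNA of glyoxal-fixed, sorted HT29 cells, processed reads with Trim Galore 0.5.0 and HISAT2 2.1.0 (submitters' processing notes), counted them per gene on GRCh38 in SeqMonk, and deposited log2 values normalized to total reads. The annotation release and strand handling of this table are not given in the sources used here. The growth medium differs between the labels and the methods. Groups and replicate numbers came from the sample descriptions. Whole reads were recovered for every gene with a read, and genes without one stand at 0.9 reads. Reads on genes set the depth, and intervals from them cover counting error only.

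Genes whose mean reached 1 RPM were tested with limma 3.58.1 (mean-variance trend, 1 coefficient per group, all 8 libraries) in R 4.3.3, with Benjamini-Hochberg adjustment over the 14219 genes tested and a threshold of 0.05. The fit was run on simulated independent libraries with a fixed dispersion, which cannot test how it handles paired libraries. Levels per kilobase used GENCODE exon lengths or, as an alternative, MANE Select transcripts. Motifs were searched in RefSeq promoter tables. Python 3.11.15, pandas 2.3.3, numpy 2.4.6, scipy 1.17.1 and matplotlib 3.10.9 were used. All 9 members are named, with the 2 nearest patterns of each, the 2 largest called changes of each pathway list in CCNB1-negative cells, pathway genes with under 10 reads in every library, and CCNB1. The lists of cell type, G2 and mitosis markers fall outside this rule. MCM7, MCIDAS, DBF4B, USP37, E2F3, EGR1, CD3E, COL1A1 and COL1A2 were named after their values were seen. Members and lists were chosen with earlier results of these data known.

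Alternatives were an adjusted p of 0.01, no filter, a filter of 10 RPM, a pseudocount of 1 RPM, quantile normalization, limma-voom on recovered reads, blocks for the replicate number and for the pair of fractions, a model of only the groups compared, and leaving out each library. The setting with a pseudocount also scaled each library to its reads on genes, a total other than that of the deposited values. A scaling that leaves MALAT1 and mitochondrial genes out of the total was chosen after seeing the data.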

Additional observations from a re-analysis of the deposited data

Results flagged for a closer look

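The change under selumetinib differed between the fractions for 4 of the 9 genes by the interaction term in limma, with the smaller fall in CCNB1-positive cells. The difference was 3.01 for CDC6 (SE 0.23, adjusted p = 4.12e-06), 2.59 for ORC6 (SE 0.24, adjusted p = 1.02e-05), 2.38 for ORC1 (SE 0.28, adjusted p = 7.66e-05) and 2.33 for CDT1 (SE 0.22, adjusted p = 1.06e-05), and 5.33% of all genes tested differed in either direction. These calls were kept in each of the 17 alternatives run for this comparison. The summed level of the 8 G2 and mitosis genes moved in the same direction, and its part was not tested. Groups of 2 libraries are too small for a test of single outlying samples.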

How the results depend on the processing

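Of 801 recomputed values for single genes, 744 kept their direction and their side of the threshold, 31 lost the call, 12 gained it and 14 changed sign without being called. The number of members lower in untreated CCNB1-positive cells, 2, became 1 at an adjusted p of 0.01, 1 with quantile normalization and 5 with a block for the pair of fractions, and ranged from 1 to 2 when 1 library was left out. The number that rose under selumetinib in CCNB1-positive cells, 0, became 1 with quantile normalization and 1 when scaled to nuclear genes without MALAT1 (ORC2 in both). The number that rose in CCNB1-negative cells, 1, ranged from 0 to 1 when 1 library was left out (0 without selumetinib CCNB1-negative replicate 2, where ORC2 lost its call).

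Sign changes were seen for ORC4, whose difference of responses was -0.043 with quantile normalization. Its CCNB1-positive response was 0.032 with a pseudocount of 1 RPM, a setting that also rescaled the libraries to reads on genes. The parts of the pseudocount and the rescaling in that value were not tested. The responses of ORC4 were 0.016 and 0.075 in CCNB1-negative and CCNB1-positive cells without MALAT1. Leaving out 1 library gave ORC4 ranges of -0.37 to 0.048 and -0.19 to 0.049 for these responses, -0.41 to 0.010 between untreated fractions and -0.12 to 0.30 for the difference of responses, -0.15 to 0.10 for the last in ORC5 and -0.27 to 0.043 for ORC2 between treated fractions. GMNN passed in CCNB1-positive cells with limma-voom (-0.48, adjusted p = 0.0229) and when only those groups were modelled (adjusted p = 0.0418).

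Deviations of same-numbered libraries correlated at 0.35 and 0.43 within a treatment and between -0.09 and 0.08 otherwise. The replicate block by number moved no member's call, with 7 lower and 1 higher in CCNB1-negative cells. The block for the pair of fractions added ORC6, CDT1 and GMNN between untreated fractions (adjusted p = 0.0357, 0.00622 and 0.00165) and ORC3 and GMNN to the difference of responses (adjusted p = 0.00179 and 0.000774). It moved the calls over all genes from 408 to 2048, 3077 to 6795 and 758 to 3813 for untreated fractions, treated fractions and the difference of responses. At an adjusted p of 0.01 these were 217, 1338 and 426, and quantile normalization gave 244 between untreated fractions. The causes were not tested. Of the 9 members the depth limits ORC1 most, at 36 reads in its lowest library.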
